A study of Homo sapiens with 8 samples.

Results

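KYSE150 cells kept in hypoxia with sodium oxamate and sodium lactate were compared with KYSE150 cells kept in hypoxia alone. KYSE150 is an established human esophageal squamous cell carcinoma line. The comparison was chosen by treatment label and took 4 of the 8 samples of the series, 2 in each group, and all genes that passed a count filter. The other 4 samples, 2 in normoxia and 2 in hypoxia with sodium oxamate alone, served as reference. By its title the series concerns lactylation of HIF-1α and immune evasion, and this contrast asks what added lactate does not restore in oxamate-treated cells and what it carries past the level of hypoxia. The label of the fourth group holds the abbreviation NALA, taken here to mean sodium lactate because the treatment protocol lists that compound. Cultures were kept in RPMI medium with bovine serum, and both compared groups were hypoxic. How much of each agent was used, for how long and at which oxygen level is not stated in the labels. No sample with lactate and without oxamate was analysed here, so lactate was measured only on top of oxamate, and 1 cell line was used.

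Lactate dehydrogenase reduces pyruvate to lactate and returns NAD+ to glycolysis, and oxamate is a pyruvate analogue that blocks the enzyme. In low oxygen the subunit HIF-1α is spared from degradation, pairs with ARNT and switches on genes of glucose uptake, glycolysis, angiogenesis and pH control. Lactate can also serve as the source of lactyl groups on lysines of histones and other proteins, a modification that has been proposed to alter transcription factors.

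Poly(A)-selected RNA was sequenced, and the deposited values are read counts per gene. Totals ran from 21845676 to 29406061 per library, and 15554 of 61517 listed genes were tested. Levels below are CPM, the share of a library's counts on the usual per-1e6 scale after TMM scaling, given for both libraries of a group, and a log2 fold change is the fitted difference ± standard error from edgeR (n = 2 libraries per group). A gene was called at a Benjamini-Hochberg adjusted p under 0.05 over all tested genes. The common biological coefficient of variation was 3.06%, so that differences well under 2-fold were called. No label says whether replicate libraries are separate cultures, so each p-value reflects just the scatter among these libraries, and that scatter may be technical. Positions are on GRCh38.

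One library stood apart. Replicate 1 of oxamate plus lactate held 19 genes with at least 10 counts that had at most 2 counts in the other 7 libraries together, 644 counts in all, while the other libraries held between 0 and 5 such genes. They were led by the plasma protein genes ALB (204 counts), AFP (98), APOB (54) and ITIH2 (37), and included TXNIP (26), CTSG (25), FGA (24) and APOA1 (21). LYZ, a leukocyte marker, had 33 counts there and at most 1 in any other library. The replicates of this group also differed most, their chi-square divided by its degrees of freedom being 4.56 against 1.83 to 2.06 in the other groups. Without this library the median log2 difference from hypoxia over all tested genes was -0.07. It was -0.09 without replicate 2 of the same group and -0.05 with both. Leaving a library out also changes which genes are tested, so the part of the 19 genes in the results was not measured.

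Of the markers of squamous epithelium, KRT5, a basal keratin, stood at 973 and 970.3 CPM under hypoxia and at 2190 and 2212 CPM under oxamate plus lactate (1.18 ± 0.025, adjusted p = 1.3e-20). TP63, the squamous lineage factor, stood at 245 and 247 CPM and 175 and 173 CPM (-0.50 ± 0.035, adjusted p = 1.25e-11). Both markers were present in every library, whereas SOX2 reached at most 12 counts in any library. The leukocyte markers CD3D and MS4A1 and the stromal markers COL3A1, DCN and KDR had 0 counts in all 8 libraries. Tested were 3 of 9 leukocyte and 3 of 10 stromal markers, and all 6 were lower than in hypoxia, beside 40.2% of all tested genes. Genes with few counts can pass the count filter through the group where they are high, so nothing is read from this direction. The summed stromal markers ran from 10.2 and 9.75 CPM under hypoxia to 1.47 and 1.67 CPM under oxamate plus lactate. The summed leukocyte markers, LYZ included, stood at 116.9 and 110.5 CPM under hypoxia and at 98.5 and 101 CPM under oxamate plus lactate. Every library is labelled KYSE150, and counts are shares of a library, so a lower marker does not show a change in the kinds of cell present.

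With oxamate plus lactate, 5981 genes (38.5% of those tested) were higher and 6246 (40.2%) were lower than in hypoxia. By at least 2-fold, 2286 genes (14.7%) were higher and 3552 (22.8%) were lower. In 13772 genes (88.5%) the libraries of the compared groups did not overlap, so a lack of overlap sets no named gene apart. The split depended on the scaling, since upper quartile normalization gave 4683 higher and 7693 lower, and library totals alone 4541 and 7841. The TMM factors were 1.10 in both hypoxia libraries and 0.901 in both libraries with oxamate plus lactate. Oxamate alone had left 5560 genes (35.7%) higher and 6965 (44.8%) lower than hypoxia. Both contrasts share the hypoxia libraries, so their values stand side by side below and their likeness is not measured.

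Read over both contrasts, 4940 genes (31.8%) were lowered by oxamate and still lower once lactate was added, and 4259 (27.4%) were raised by oxamate and still higher. Of the genes that crossed hypoxia, 1086 (6.98%) were lowered by oxamate and above the hypoxia level with lactate, and 437 (2.81%) were raised by oxamate and below it. Counted separately, 1299 genes (8.35%) were changed by oxamate and came back to hypoxia, which here means that the 95% interval of the log2 difference lay within 0.32 on either side of 0. This class overlaps the others, since a difference can be called and still lie within these bounds. The median log2 difference from hypoxia of the still lower genes was -1.52 with oxamate and -1.35 with oxamate plus lactate. That of the still higher genes was 0.95 and 0.86. Both classes were picked by these same differences, so the side of hypoxia on which their medians lie was fixed. Genes that crossed hypoxia or were not called with lactate added are left out of both.

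Among genes known to answer to hypoxia and HIF, outside glycolysis, 43 of 49 listed were tested. With oxamate alone 38 were lower and 4 higher than in hypoxia (median -2.30), beside 44.8% and 35.7% of all tested genes. With lactate added 27 were lower, 12 higher and 4 not called, beside 40.2% lower and 38.5% higher of all tested genes. The members had a median of -0.74, against -0.05 over all tested genes. Their summed level was 16721 and 16758 CPM under hypoxia, 3511 and 3536 CPM under oxamate and 12179 and 12424 CPM under oxamate plus lactate. The group as a whole therefore stood between oxamate and hypoxia, but its members spread from -3.72 to 1.79 on the log2 scale. Of the 33 members that oxamate lowered by at least 2-fold, the median gene had 63.0% of that log2 decrease taken back once lactate was added.

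CA9, which encodes the pH-regulating enzyme carbonic anhydrase IX (ENSG00000107159, chr9:35673856-35681159), was the member of the list farthest below hypoxia. Its level was 5.73 and 6.99 CPM under normoxia, 243 and 248 CPM under hypoxia, 8.71 and 7.4 CPM under oxamate and 17.2 and 19.9 CPM under oxamate plus lactate. The compared groups did not overlap, and the lactate libraries lay far closer to normoxia than to hypoxia (-3.72 ± 0.063, adjusted p = 2.97e-21). On the opposite strand, ARHGEF39 covers 38.5% of the exon bases of CA9 at 15.8% of its level, and whether reads were counted by strand is not stated. HILPDA, which encodes a lipid droplet protein (ENSG00000135245, chr7:128455849-128458418), stood at 415 and 415 CPM under hypoxia, 11.7 and 11.4 CPM under oxamate and 36.5 and 36.5 CPM with lactate added (-3.51 ± 0.042, adjusted p = 1.07e-24). It too stayed nearer to the oxamate level, with 32.2% of the oxamate decrease taken back. KCTD11, an adaptor of ubiquitin ligases that is not on the list, showed 289 and 296 CPM, 3.14 and 3.2 CPM and 19.6 and 20.1 CPM in the same order (-3.88 ± 0.048). IGFBP3, a carrier of insulin-like growth factors, was at 116 and 122 CPM under hypoxia and 30.4 and 27.1 CPM under oxamate plus lactate (-2.06 ± 0.063). PFKFB4, a regulator of glycolytic flux, was at 153 and 149 CPM and 34.9 and 37.8 CPM (-2.05 ± 0.053). All of these were still at least 4-fold under hypoxia.

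Other members were partly back. NDRG1, a stress-response gene and the most abundant member in hypoxia, fell from 7382 and 7331 CPM under hypoxia to 397 and 396 CPM under oxamate and stood at 3624 and 3787 CPM with lactate added. It remained below hypoxia in both libraries (-0.99 ± 0.053, adjusted p = 4.77e-07). The mitophagy receptors BNIP3 (-0.90 ± 0.041) and BNIP3L (-1.31 ± 0.037) and the collagen prolyl hydroxylase P4HA1 (-0.53 ± 0.036) also remained lower. Oxamate alone had left these at -2.34, -3.41 and -2.84. INSIG2, a regulator of sterol synthesis, went from 136 and 140.5 CPM under hypoxia to 5.3 and 3.36 CPM under oxamate and 31.2 and 29.5 CPM with lactate added (-2.19 ± 0.071).

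With TMM scaling still others lay at or near the hypoxia level. VEGFA, the angiogenic growth factor, was at 82.3 and 81.6 CPM under hypoxia, 15.1 and 17.3 CPM under oxamate and 76.9 and 80.8 CPM under oxamate plus lactate. The lactate libraries lay just under both hypoxia libraries, and the difference was not called (-0.05 ± 0.049, 95% interval -0.16 to 0.05, adjusted p = 0.324). It was called lower with upper quartile normalization (-0.31), with library totals alone (-0.34) and with a stricter count filter (-0.14). ANKRD37, an ankyrin repeat gene, was at 51.1 and 52.9 CPM under hypoxia, 3.48 and 3.92 CPM under oxamate and 51.6 and 51.3 CPM with lactate added (-0.02 ± 0.058, interval -0.14 to 0.10). Its groups overlapped, but it too was called lower with upper quartile normalization (-0.27) and library totals alone (-0.30). Of its exon bases, 35.2% are shared with UFSP2 on the opposite strand. ZNF395 was not called either (0.04 ± 0.029, adjusted p = 0.212), though it was called lower with upper quartile normalization (-0.22, adjusted p = 1.21e-06 by edgeR) and higher without replicate 1 of oxamate plus lactate (0.06). DDIT4, an inhibitor of mTORC1, stood at 1818 and 1839 CPM under hypoxia, 248 and 239 CPM under oxamate and 1576 and 1614 CPM with lactate added. It remained slightly below hypoxia (-0.20 ± 0.031, adjusted p = 6.54e-06), with 93.2% of the oxamate decrease taken back. PDK1, a kinase that inhibits the pyruvate dehydrogenase complex, was called slightly higher (0.19 ± 0.041), but its sign turned with upper quartile normalization (-0.07) and with library totals alone (-0.09).

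The remaining members went past hypoxia. KDM3A, a histone H3 lysine demethylase (ENSG00000115548, chr2:86440647-86492716), stood at 212 and 219 CPM under hypoxia, 91.9 and 93.4 CPM under oxamate and 597 and 591 CPM under oxamate plus lactate. Oxamate had lowered it, and with lactate it was 2.76 times its hypoxia level (1.46 ± 0.032, adjusted p = 1.91e-20). ARRDC3, an arrestin-domain gene (ENSG00000113369, chr5:91368724-91383359), went from 90.6 and 93.4 CPM under hypoxia to 11.2 and 11.1 CPM under oxamate and 327 and 311 CPM with lactate added (1.79 ± 0.039, adjusted p = 1.91e-20). Here the oxamate libraries lay at the normoxia level of 12.3 and 12.6 CPM and the lactate libraries above every other library. STC2 (0.82 ± 0.045), which encodes stanniocalcin 2, WSB1 (0.45 ± 0.038), a ubiquitin ligase subunit, and KLHL24 (1.68 ± 0.057) took the same course. ADM, which encodes the vasodilator adrenomedullin, followed another, since it rose with oxamate (0.95 ± 0.032) and stood higher still with lactate (1.43 ± 0.032). BHLHE40, a transcriptional repressor (1.28 ± 0.031), and PFKFB3, an activator of glycolysis (1.40 ± 0.033), also exceeded hypoxia.

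**Figure D1:**
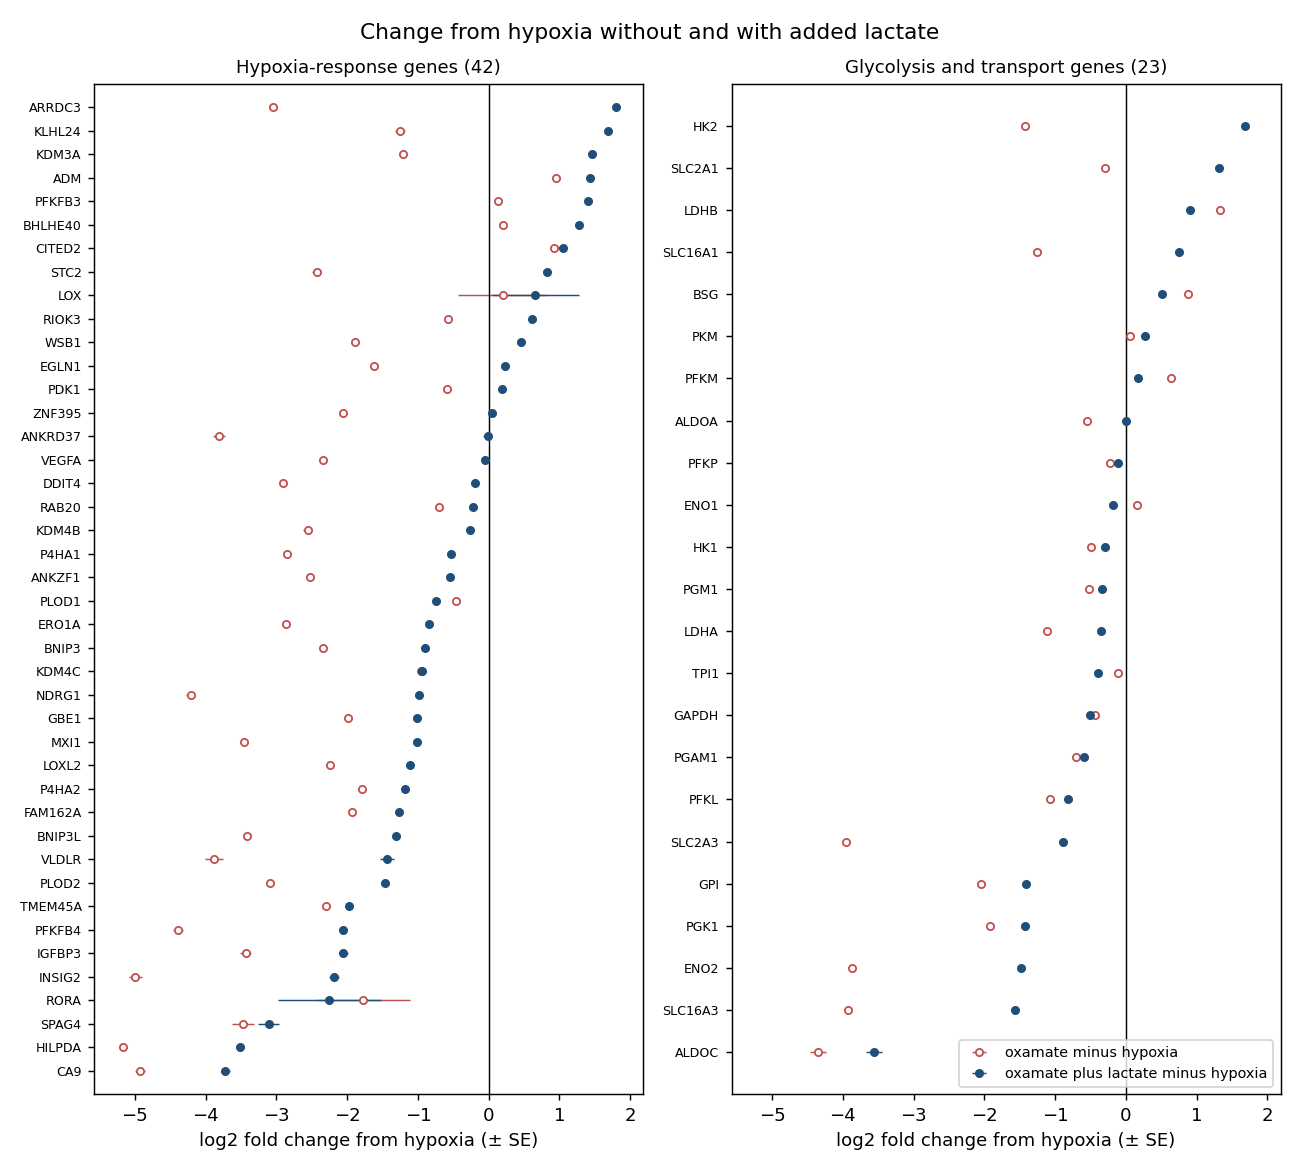
Log2 fold change from hypoxia (horizontal axis, ± SE) of 42 hypoxia-response genes (left) and 23 glycolysis or transport genes (right), with oxamate alone (open red) and with oxamate plus lactate (filled blue). CA9 at -3.72 and HILPDA at -3.51 lie at the bottom, VEGFA and ANKRD37 near 0, and ARRDC3 at 1.79 at the top left.

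The glycolysis list also holds glucose and lactate transporters. With oxamate plus lactate 15 of its 23 members were lower and 7 higher than in hypoxia, with a median of -0.33. Of all tested genes 40.2% were lower and 38.5% higher. In this list oxamate alone gave 18 lower, 5 higher and a median of -0.55, beside 44.8% lower and 35.7% higher of all tested genes. The 7 members higher with oxamate plus lactate were HK2, SLC2A1, LDHB, SLC16A1, BSG, PKM and PFKM. HK2, which encodes hexokinase 2, the enzyme that traps glucose in the cell (ENSG00000159399, chr2:74833981-74893359), stood at 78.7 and 78.7 CPM under normoxia, 904 and 907 CPM under hypoxia, 336 and 340.0 CPM under oxamate and 2910 and 2917 CPM under oxamate plus lactate. The lactate libraries were the highest by a wide margin, at 3.22 times hypoxia (1.69 ± 0.026, adjusted p = 8.2e-23). SLC2A1, which encodes the glucose transporter GLUT1, was at 686 and 674 CPM under hypoxia, 560.1 and 552 CPM under oxamate and 1643 and 1756 CPM with lactate added (1.32 ± 0.031, adjusted p = 7.72e-20). SLC16A1, which encodes the lactate transporter MCT1, was at 203 and 207 CPM, 85.4 and 86.8 CPM and 348 and 344 CPM in the same groups (0.76 ± 0.032). For both transporters the compared groups did not overlap, as in 88.5% of all tested genes, and lactate turned a decrease with oxamate into an increase.

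Their relatives GLUT3 and MCT4 went the other way. SLC2A3, which encodes GLUT3, stood at 1491 and 1467 CPM under hypoxia, 98.2 and 91.8 CPM under oxamate and 808 and 792 CPM with lactate added (-0.89 ± 0.03, adjusted p = 2.9e-17). SLC16A3, which encodes the lactate exporter MCT4, stood at 300.3 and 295 CPM, 18.7 and 20.5 CPM and 97.3 and 103 CPM (-1.57 ± 0.041, adjusted p = 3.37e-19). It shares 5.4% of its exon bases with CSNK1D on the opposite strand. Each pair of related transporters thus ended on opposite sides of hypoxia, GLUT1 above and GLUT3 below, and MCT1 above and MCT4 below.

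Most enzymes between glucose and pyruvate remained lower. ALDOC, the brain-type aldolase (ENSG00000109107, chr17:28573115-28577264), stood at 44.9 and 40.8 CPM under hypoxia, 1.9 and 2.31 CPM under oxamate and 3.41 and 3.83 CPM with lactate added (-3.56 ± 0.11, adjusted p = 5.19e-18). ALDOA, the main aldolase, was at 4055 and 3984 CPM under hypoxia and 3919 and 4168 CPM under oxamate plus lactate, so that its libraries overlapped (0.01 ± 0.028, interval -0.05 to 0.07). ALDOA was called lower with upper quartile normalization (-0.25), and called higher without replicate 1 of oxamate plus lactate (0.06). PGK1, the first ATP-forming enzyme of glycolysis, was at 3591 and 3649 CPM under hypoxia and 1374 and 1329 CPM under oxamate plus lactate (-1.42 ± 0.027). GPI (-1.41 ± 0.028), ENO2 (-1.48 ± 0.037) and GAPDH (-0.50 ± 0.026) were lower too, and GAPDH was at 14822 and 14682 CPM under oxamate alone, close to its 13782 and 14472 CPM with lactate. PKM, which encodes pyruvate kinase, was slightly higher (0.27 ± 0.025), a sign that turned with library totals alone (-0.01).

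LDHA, the subunit that favours lactate formation and part of the enzyme that oxamate targets, stood at 5657 and 5656 CPM under hypoxia, 2624 and 2611 CPM under oxamate and 4526 and 4347 CPM under oxamate plus lactate. It came most of the way back but remained lower in both libraries (-0.35 ± 0.025, adjusted p = 2.61e-11). LDHB, the subunit that favours pyruvate formation, was at 877 and 890.0 CPM, 2240 and 2200 CPM and 1728 and 1596 CPM in the same groups (0.91 ± 0.032, adjusted p = 7.93e-17). Oxamate had raised LDHB, and 31.4% of that rise was taken back with lactate.

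**Figure D2:**
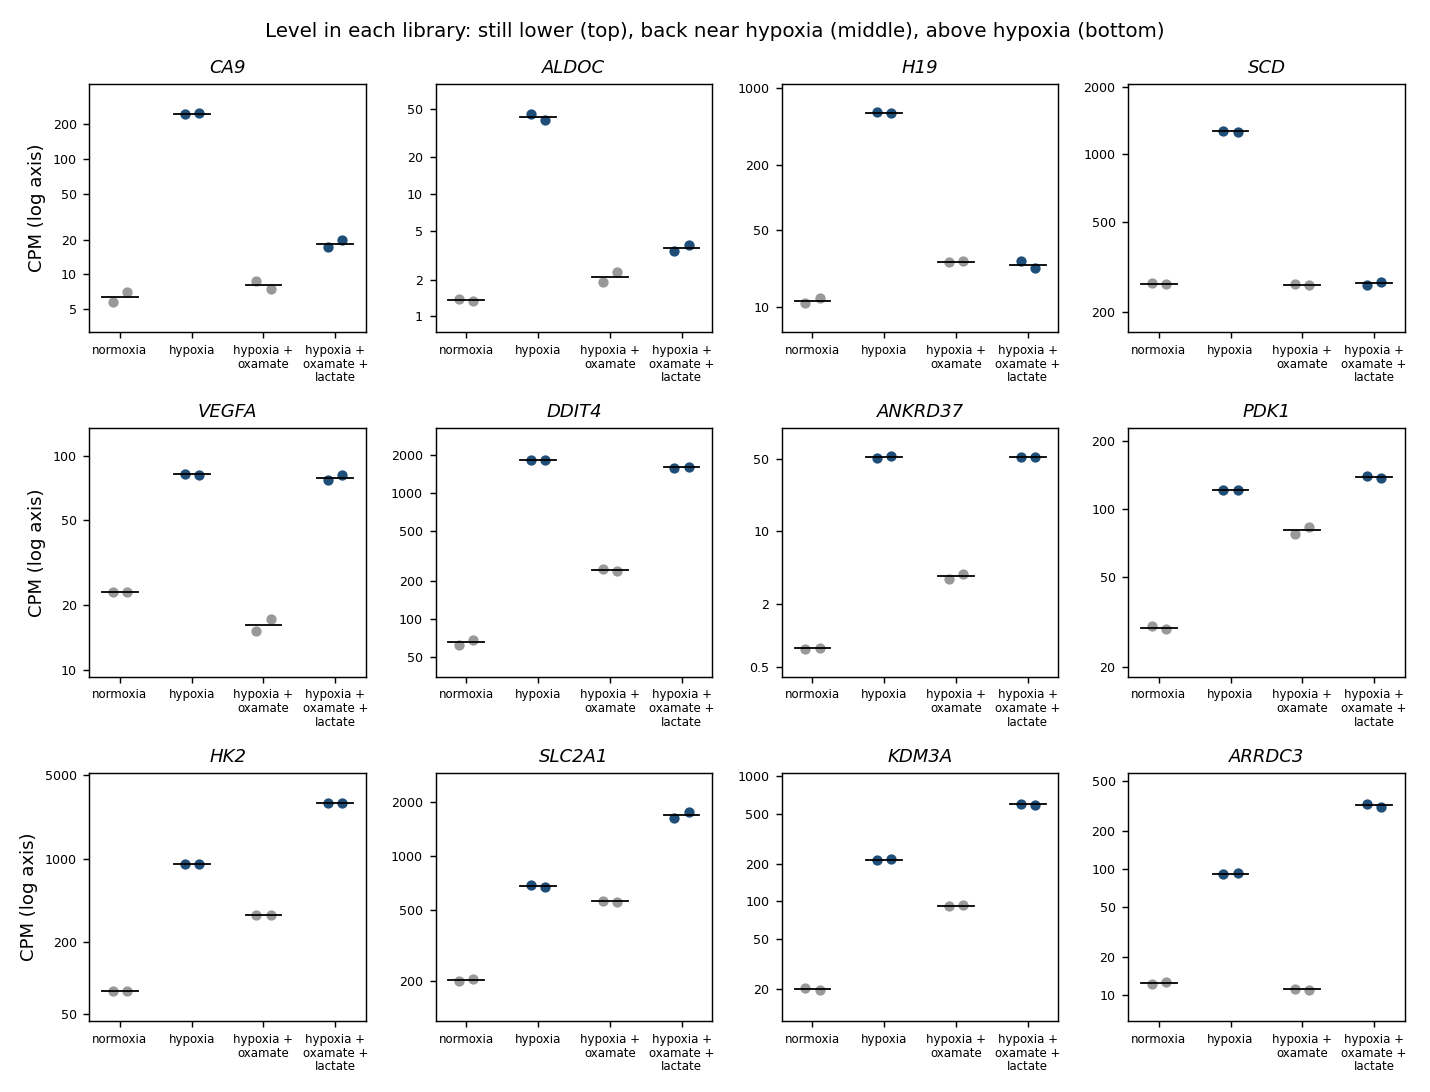
Scaled CPM (log axis) of 12 genes in each library, with group means as horizontal lines, the compared groups in blue and the reference groups in grey. CA9, ALDOC, H19 and SCD stay far below hypoxia with lactate added, the middle row lies close to hypoxia, and HK2 at 2910 and 2917 CPM, SLC2A1, KDM3A and ARRDC3 lie above.

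Promoters are printed for the extremes among the hypoxia and glycolysis genes that oxamate lowered, so that the sequence can be set beside the course of the transcript. They are the pair farthest below hypoxia with lactate added (CA9 and ALDOC) and the pair nearest to it (ALDOA and ANKRD37), of 56 genes in all, 44 of them with an entry in the RefSeq promoter table (GRCh38.p14). Each sequence runs 5′ to 3′ on the strand of the gene, 300 bases around the annotated start. Capitals mark ACGTG and GCGTG, the core of the HIF response element, or its reverse complement, and matches can overlap.
CA9, chr9:35673678-35673977, plus strand: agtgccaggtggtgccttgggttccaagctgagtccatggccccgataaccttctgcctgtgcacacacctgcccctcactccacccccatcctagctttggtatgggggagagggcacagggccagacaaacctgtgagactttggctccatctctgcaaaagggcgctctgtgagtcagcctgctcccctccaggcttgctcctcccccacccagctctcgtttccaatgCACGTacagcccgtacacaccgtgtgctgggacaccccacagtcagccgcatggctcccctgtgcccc
ALDOC, chr17:28576846-28577145, minus strand: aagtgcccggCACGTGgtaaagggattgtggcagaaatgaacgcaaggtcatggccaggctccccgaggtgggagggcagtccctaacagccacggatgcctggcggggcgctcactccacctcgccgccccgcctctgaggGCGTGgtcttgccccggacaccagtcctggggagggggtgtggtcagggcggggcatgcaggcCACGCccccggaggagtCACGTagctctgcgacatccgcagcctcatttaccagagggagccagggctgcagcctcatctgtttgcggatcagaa
ALDOA, the first of 3 entries, chr16:30064029-30064328, plus strand: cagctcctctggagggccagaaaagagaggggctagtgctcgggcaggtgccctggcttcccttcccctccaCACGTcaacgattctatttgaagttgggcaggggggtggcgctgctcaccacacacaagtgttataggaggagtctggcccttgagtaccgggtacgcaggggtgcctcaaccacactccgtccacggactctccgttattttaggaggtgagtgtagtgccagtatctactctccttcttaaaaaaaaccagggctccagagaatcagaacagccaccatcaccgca
ANKRD37, chr4:185396591-185396890, plus strand: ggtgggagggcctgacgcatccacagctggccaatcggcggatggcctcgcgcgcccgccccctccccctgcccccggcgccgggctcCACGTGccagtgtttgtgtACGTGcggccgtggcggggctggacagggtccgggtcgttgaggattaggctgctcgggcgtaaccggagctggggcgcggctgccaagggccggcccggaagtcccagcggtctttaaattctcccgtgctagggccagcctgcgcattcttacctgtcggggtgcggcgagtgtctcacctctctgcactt
CA9 held 1 match, ALDOC 5, ALDOA 1 and ANKRD37 3. The core was in 48.4% of all 35116 promoters of the table and in 63.0% of 10564 promoters of tested genes. Of the genes lowered by oxamate, 22 of 32 (68.8%) that were still lower with lactate held it, and 10 of 12 (83.3%) that were not. A match only says that these letters lie in the window.

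Of 9 tested regulators of the HIF system, 5 were higher and 4 lower than in hypoxia, beside 38.5% and 40.2% of all tested genes. HIF1A, which encodes HIF-1α, stood at 119 and 119 CPM under hypoxia, 156 and 162 CPM under oxamate and 278 and 267 CPM under oxamate plus lactate. Both lactate libraries were above all others (1.19 ± 0.036, adjusted p = 4.68e-18), whereas normoxia, at 115 and 114 CPM, lay close to hypoxia. ARNT, its dimer partner, was at 46.1 and 47.3 CPM, 21.8 and 22.1 CPM and 57.3 and 65.7 CPM (0.40 ± 0.062), lowered by oxamate and above hypoxia with lactate, though its call was lost with library totals alone (0.12, adjusted p = 0.0894 by edgeR). The HIF prolyl hydroxylase gene EGLN2 was higher (1.40 ± 0.062), and EGLN1 was called higher by a small amount (0.23 ± 0.044) that turned to -0.03 with upper quartile normalization. HIF1AN, which encodes the asparaginyl hydroxylase that blocks HIF activity, stood at 59.4 and 58.9 CPM under hypoxia, 13.4 and 12.8 CPM under oxamate and 16.0 and 16.4 CPM with lactate added (-1.87 ± 0.062). It shares 2.3% of its exon bases with NDUFB8. EPAS1 (-0.37 ± 0.054), which encodes HIF-2α, and VHL (-0.53 ± 0.071), the ubiquitin ligase subunit that binds hydroxylated HIF, remained lower.

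Of 17 tested genes for lactate sensing and for enzymes proposed to add or remove lactyl groups, 8 were higher and 7 lower, beside 38.5% and 40.2% of all tested genes. EP300, a HIF coactivator and proposed lactyltransferase, was at 28.3 and 27.4 CPM under hypoxia, 17.2 and 19.9 CPM under oxamate and 43.8 and 45.1 CPM under oxamate plus lactate (0.68 ± 0.065, adjusted p = 2.83e-09). Its paralogue CREBBP was at 40.0 and 37.3 CPM, 48.9 and 51.5 CPM and 108 and 109 CPM (1.49 ± 0.049). In both, the lactate libraries were the highest of the series. SIRT1, a nuclear deacylase, stood at 22.5 and 22.2 CPM under hypoxia, 22.2 and 21.9 CPM under oxamate and 86.2 and 80.7 CPM with lactate added (1.90 ± 0.057, adjusted p = 4.08e-18). Its level differed with lactate while oxamate alone gave no call (-0.02 ± 0.066). SIRT3, the mitochondrial deacylase, ran the other way (-1.69 ± 0.091), and PSMD13, which shares 6.1% of its exon bases, was far more abundant. KAT8 (-1.06 ± 0.079), another proposed writer, was lower.

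The JmjC list holds mostly demethylases, which use oxygen and 2-oxoglutarate to take methyl groups from histones. Its members were mostly lower than hypoxia with oxamate and, with TMM scaling, mostly higher once lactate was added. With oxamate 15 of 19 were lower and 3 higher (median -0.72), beside 44.8% and 35.7% of all tested genes. With lactate added 15 were higher and 4 lower than in hypoxia (median 0.37), beside 38.5% and 40.2% of all tested genes. Of the 15, 11 had been lowered by oxamate first, a course taken by 6.98% of all tested genes. With library totals alone 8 were higher and 7 lower, and the median was 0.08. JMJD1C was at 74.8 and 77.4 CPM under hypoxia, 18.3 and 19.7 CPM under oxamate and 102 and 95.2 CPM with lactate added (0.37 ± 0.048), a call lost with library totals alone (0.08, adjusted p = 0.116 by edgeR). KDM5B, which acts on lysine 4 of histone H3, was at 26.1 and 25.3 CPM, 4.18 and 5.26 CPM and 31.5 and 31.9 CPM (0.30 ± 0.076), and its call was lost both with upper quartile normalization (0.04) and with library totals alone (0.02). KDM7A (1.27 ± 0.14) was higher as well. KDM4C remained at its oxamate level (-0.94 ± 0.046, against -0.96 with oxamate), and KDM6B, which acts on lysine 27, was partly back (-0.67 ± 0.059).

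Most genes of DNA replication were higher with oxamate than in hypoxia, and all were lower with lactate than with oxamate alone. Hypoxia itself had lowered 41 of 47 members against normoxia, beside 36.8% of all genes. Oxamate left 36 higher and 8 lower than hypoxia (median 0.89), beside 35.7% and 44.8% of all tested genes. With oxamate plus lactate 18 were higher and 23 lower (median -0.06), beside 38.5% and 40.2% of all tested genes. Set directly against oxamate alone, all 47 members were lower with lactate (median -0.89), beside 31.7% of all genes. Relative to hypoxia the list therefore split by member.

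PCNA, the sliding clamp of replication, stood at 263 and 267 CPM under normoxia, 103 and 112 CPM under hypoxia, 132 and 131 CPM under oxamate and 39.6 and 41.9 CPM under oxamate plus lactate. The lactate libraries were the lowest of the series (-1.40 ± 0.048, adjusted p = 4.78e-17). CDC6, which loads the replicative helicase, was at 44.6 and 45.2 CPM under hypoxia, 137 and 139 CPM under oxamate and 37.1 and 34.9 CPM with lactate added (-0.32 ± 0.052, adjusted p = 7.61e-06). It had been raised by oxamate and ended below hypoxia, as did MCM6 (-0.60 ± 0.052) and GINS4 (-0.54 ± 0.12). RPA1 (-1.64 ± 0.038), GINS1 (-2.10 ± 0.085) and E2F8 (-2.60 ± 0.094) were lower with both treatments. MCM4 was at 278 and 275 CPM under hypoxia, 869 and 874 CPM under oxamate and 494 and 489 CPM with lactate added, still above hypoxia (0.83 ± 0.029). RPA2 (1.22 ± 0.053) and CDC45 (1.10 ± 0.06) were higher too. MCM3 (0.19 ± 0.03) and MCM10 (0.15 ± 0.06, adjusted p = 0.0259) lay close to hypoxia, and the signs of both turned with upper quartile normalization (-0.07 and -0.11). MCM10 also lost its call without replicate 2 of hypoxia or replicate 1 of oxamate plus lactate.

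Subunits of one complex could thus lie on opposite sides of hypoxia, MCM4 above and MCM6 below, and RPA2 above and RPA1 below. Genes of G2 and mitosis showed 9 higher and 23 lower of 39 (median -0.18), beside 38.5% and 40.2% of all tested genes. HMMR, a spindle protein, stood at 133 and 133 CPM under hypoxia, 88.6 and 90.0 CPM under oxamate and 41.2 and 39.4 CPM with lactate added (-1.72 ± 0.045). CKS2, a cofactor of cyclin-dependent kinases, was at 94.2 and 89.8 CPM, 93.0 and 91.5 CPM and 212 and 211 CPM (1.20 ± 0.041), the reverse of HMMR.

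Histone genes, which hypoxia had raised in 14 of 16 tested members (36.7% of all genes), were lower in 12 and higher in 1 with oxamate plus lactate (median -2.04), beside 40.2% and 38.5% of all tested genes. Transcripts of most of these genes lack a poly(A) tail, so poly(A) selection captures them only in part. H2AC6 was at 43.5 and 45.3 CPM under hypoxia, 20.6 and 21.7 CPM under oxamate and 13.1 and 14.8 CPM with lactate added (-1.67 ± 0.074, adjusted p = 4.46e-15), lowest with lactate. H2AC20, the member called higher, had 3 counts over both hypoxia libraries, and lost its call without replicate 1 of hypoxia. H2AC8 had 22 and 25 counts under hypoxia and 4 and 1 with oxamate plus lactate. Such scarce members can pass the count filter through the group where they are high, so nothing is read from the number lower.

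**Figure D3:**
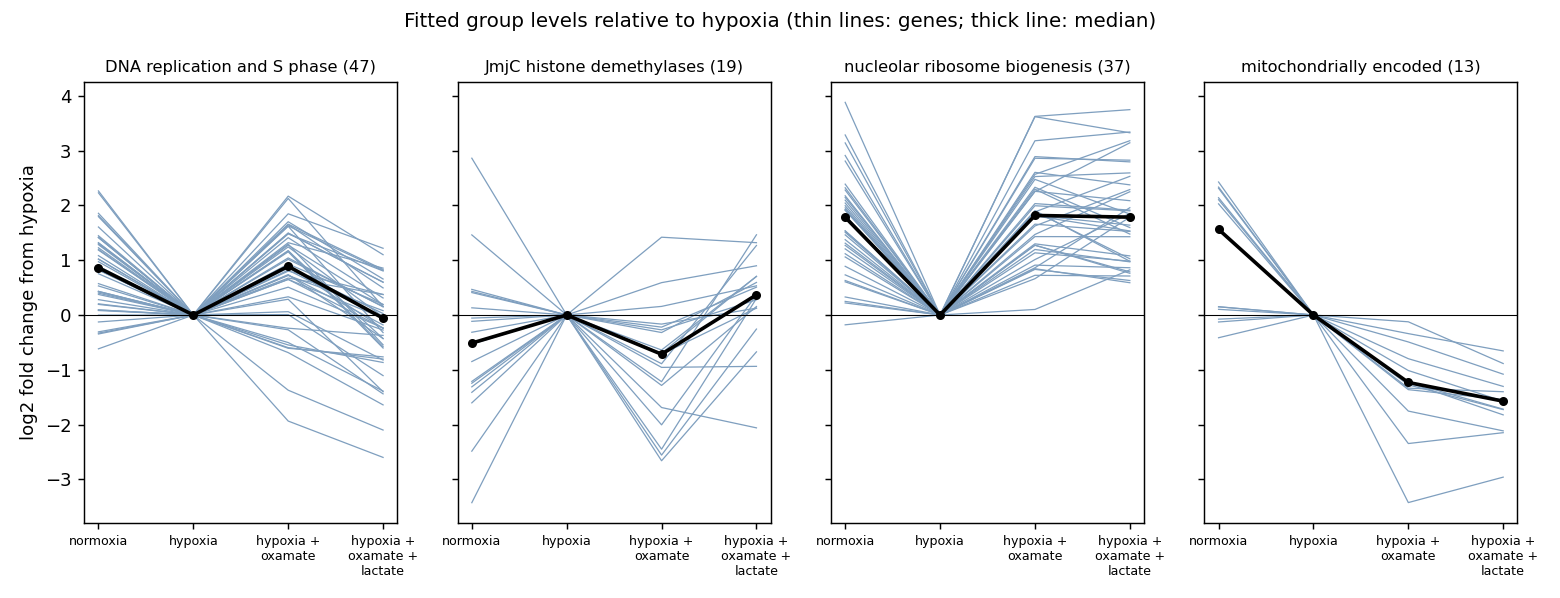
Fitted log2 level of each tested gene of 4 lists relative to hypoxia (vertical axis) in the 4 groups, with thin lines for genes and a thick line for the median. The replication median returns from 0.89 with oxamate to -0.06 with lactate, the JmjC median goes from -0.72 to 0.37, ribosome biogenesis stays at 1.78 and the mitochondrially encoded genes stay lowest at -1.57.

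The respiratory chain split by genome. All 13 protein-coding genes of the mitochondrial chromosome were lower with oxamate plus lactate than in hypoxia (median -1.57), beside 40.2% of all tested genes. The median of the 13 was -1.23 with oxamate alone. MT-ATP6, a subunit of the ATP synthase, stood at 909.5 and 865 CPM under hypoxia, 171 and 178 CPM under oxamate and 205 and 196 CPM with lactate added (-2.15 ± 0.033, adjusted p = 7.35e-23). MT-CO3, a subunit of cytochrome oxidase, stood at 944 and 926 CPM, 401 and 396 CPM and 269 and 260.4 CPM (-1.82 ± 0.028). MT-ATP6 and MT-ATP8 lay slightly above their oxamate level, MT-CO3 below. MT-ATP8, with 22.2% of its bases inside MT-ATP6, had the largest decrease of the 13 (-2.96 ± 0.058). MT-ND2 had the smallest (-0.66 ± 0.034). Mitochondrial genes took 4.78% and 4.61% of all counts in hypoxia and 2.14% and 2.09% with oxamate plus lactate, and scaling without them left the totals at 5978 higher and 6250 lower.

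Nuclear subunits of the same chain were higher in 53 and lower in 4 of 62 (median 0.48, against 0.75 with oxamate alone). With library totals alone 36 were higher and 10 lower, with a median of 0.19. NDUFB9, a subunit of complex I, stood at 130.4 and 132 CPM under hypoxia, 318 and 314 CPM under oxamate and 346 and 335 CPM with lactate added (1.38 ± 0.033). NDUFS3 (1.44 ± 0.036) was higher as well, though CELF1, with which it shares 6.4% of its exon bases, was as abundant. Of 25 genes of the TCA cycle, 15 were higher and 7 lower (median 0.49, or 0.20 with library totals alone). Of all tested genes 38.5% were higher and 40.2% lower. SDHB, the iron-sulfur subunit of succinate dehydrogenase, was at 76.8 and 74.9 CPM under hypoxia and 165 and 165 CPM under oxamate plus lactate (1.12 ± 0.041). IDH2, the mitochondrial isocitrate dehydrogenase, was at 151 and 147 CPM under hypoxia, 93.3 and 97.3 CPM under oxamate and 58.9 and 60.5 CPM with lactate added (-1.32 ± 0.043), at the normoxia level of 58.3 and 58.2 CPM.

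Genes of protein production were mostly above hypoxia. All 37 nucleolar ribosome biogenesis genes were higher (median 1.78), beside 38.5% of all tested genes. With oxamate alone all 37 had been higher too (median 1.82), beside 35.7% of all tested genes. Hypoxia had lowered 36 of them, beside 36.8%. NOP16, a ribosome assembly factor, stood at 45.7 and 46.4 CPM under hypoxia, 270.1 and 275 CPM under oxamate and 425 and 409 CPM with lactate added (3.18 ± 0.037, adjusted p = 8.93e-25). RRP12 stood at 26.8 and 28.8 CPM, 205 and 207 CPM and 192 and 193 CPM (2.79 ± 0.044). The groups of both genes lay far apart. NOP16 shares 7.9% of its exon bases with HIGD2A on the opposite strand.

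Of 54 cytosolic ribosomal protein genes, 53 were higher and 1 lower than in hypoxia (median 0.60). All 54 were lower than with oxamate alone, beside 31.7% of all tested genes. RPL6, the member below hypoxia, thereby moved farther from it (-0.48 ± 0.029, against -0.24 with oxamate). RPL18 was at 452 and 455 CPM under hypoxia, 1069 and 1097 CPM under oxamate and 890.2 and 881 CPM with lactate added (0.97 ± 0.028). Cytosolic aminoacyl-tRNA synthetases were higher in 17 of 20 (median 0.69), with VARS1 at 2.06 ± 0.04. Among 15 splicing factors and CLK kinases 11 were higher and 4 lower, beside 38.5% and 40.2% of all tested genes. SRSF6 rose from 66.0 and 70.5 CPM to 318 and 319 CPM (2.22 ± 0.038), past the 156 and 160.5 CPM of oxamate alone.

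Folding and degradation genes were high too. Of all tested genes 38.5% were higher and 40.2% lower than in hypoxia. Heat shock and cytosolic chaperone genes were higher in 18 and lower in 1 of 20 (median 1.24). HSPA8, the constitutive HSP70, stood at 3701 and 3631 CPM under normoxia, 418 and 410.3 CPM under hypoxia, 3413 and 3437 CPM under oxamate and 2418 and 2341 CPM under oxamate plus lactate (2.52 ± 0.028, adjusted p = 3.61e-25). Hypoxia was its lowest group by far. All 8 subunits of the CCT chaperonin were higher (median 1.11), CCT3 at 1.40 ± 0.03. All 8 were lower than with oxamate alone, beside 31.7% of all tested genes. Endoplasmic reticulum chaperones and unfolded protein genes were higher in 21 of 23 (median 0.82), and HSPA5, which encodes BiP, was at 139.7 and 144 CPM under hypoxia, 789 and 775 CPM under oxamate and 804 and 777 CPM with lactate added (2.48 ± 0.032). Proteasome subunits were higher in 29 of 31 (median 0.90), with PSMC4 at 1.76 ± 0.033.

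**Figure D4:**
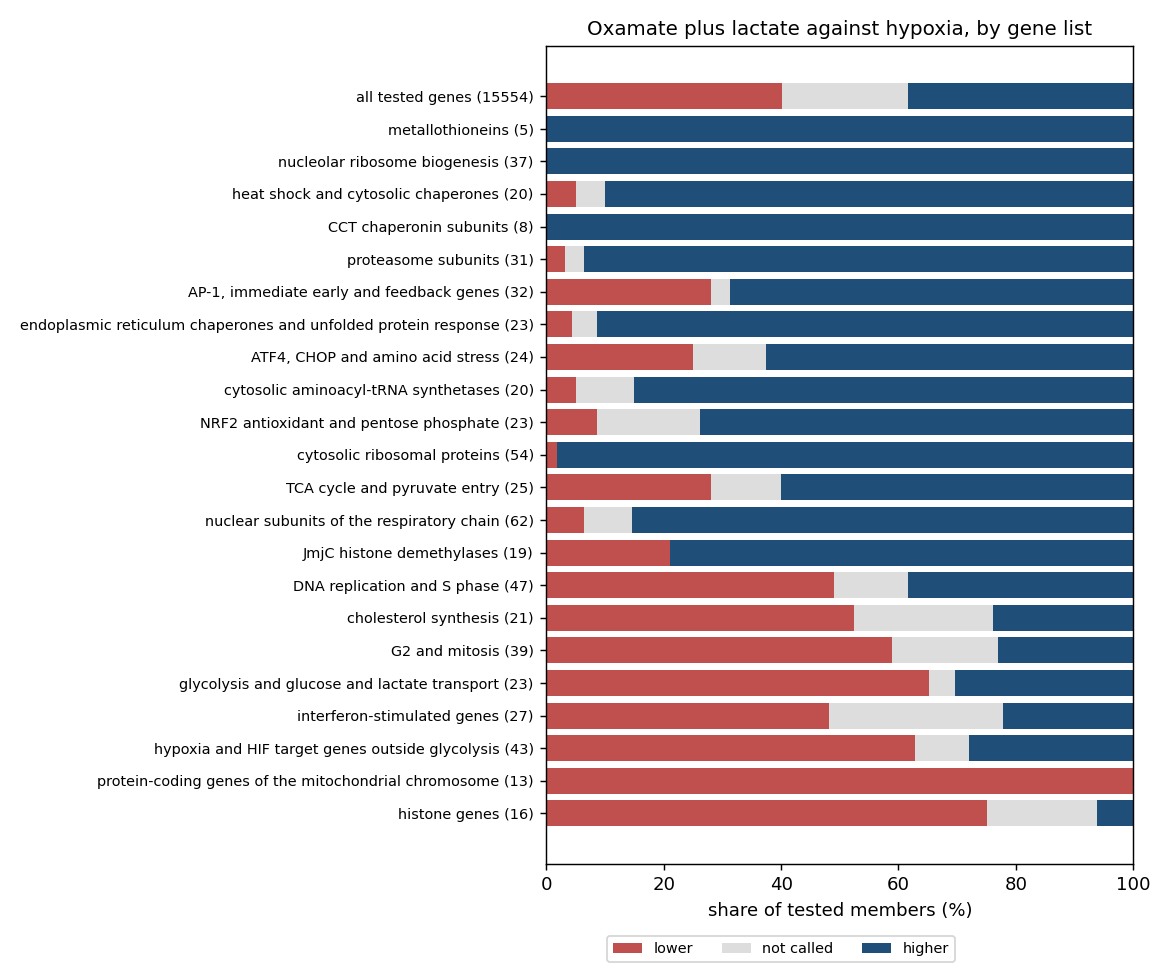
Share of tested members of 22 gene lists that were lower (red), not called (grey) or higher (blue) with oxamate plus lactate than in hypoxia, sorted by median change, with the number tested in parentheses and all tested genes on top. Metallothioneins, ribosome biogenesis and CCT subunits are higher throughout and mitochondrially encoded genes lower throughout, whereas 38.5% of all genes were higher.

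Some stress genes were farther from hypoxia with lactate than with oxamate alone. Of the 24 genes of ATF4, CHOP and amino acid stress, 15 were higher and 6 lower (median 0.76, against -0.17 with oxamate alone). Of all tested genes 38.5% were higher and 40.2% lower. ATF3, a stress-induced transcription factor, stood at 82.4 and 85.8 CPM under hypoxia, 589 and 604 CPM under oxamate and 947 and 979.5 CPM under oxamate plus lactate (3.52 ± 0.035, adjusted p = 9.07e-26). PPP1R15A, a phosphatase subunit that ends the stress block on translation, stood at 154 and 150.4 CPM, 654 and 650.0 CPM and 1141 and 1177 CPM (2.93 ± 0.032). GDF15, which encodes a stress cytokine (ENSG00000130513, chr19:18374731-18389176), stood at 4.45 and 4.01 CPM, 16.5 and 15.1 CPM and 104 and 121 CPM (4.73 ± 0.12, adjusted p = 2.04e-13). In all of these the groups were ordered hypoxia, oxamate, oxamate plus lactate without overlap. ATF4 itself was higher (1.77 ± 0.032). Not all genes of the list took this course, for the serine synthesis gene PSAT1 was at 49.4 and 46.9 CPM under hypoxia, 96.3 and 97.0 CPM under oxamate and 27.5 and 28.3 CPM with lactate added (-0.79 ± 0.053), and the amino acid transporter SLC7A5 was lower (-0.79 ± 0.029).

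AP-1, immediate early and feedback genes were higher in 22 and lower in 9 of 32 (median 0.86, against -0.59 with oxamate alone). Of all tested genes 38.5% were higher and 40.2% lower. DUSP10, a phosphatase of stress kinases, stood at 40.6 and 40.7 CPM under hypoxia, 169 and 165 CPM under oxamate and 688 and 678 CPM under oxamate plus lactate (4.07 ± 0.04, adjusted p = 9.07e-26). GADD45A, a growth arrest gene, stood at 26.9 and 27.2 CPM, 712 and 689 CPM and 604 and 627 CPM (4.51 ± 0.041), with little difference between the treated groups. JUN (2.65 ± 0.053) and FOSL1 (2.11 ± 0.052), both AP-1 subunits, were higher, whereas FOS (-2.31 ± 0.28) and EGR1 (-2.32 ± 0.16) were lower. IER3, a survival gene, was at 927 and 925 CPM under hypoxia, 40.9 and 42.8 CPM under oxamate and 315 and 345 CPM with lactate added, and remained below hypoxia (-1.49 ± 0.036). MYC, the growth-promoting transcription factor, stood at 11.9 and 11.9 CPM under hypoxia, 37.4 and 40.8 CPM under oxamate and 118 and 119.7 CPM with lactate added (3.32 ± 0.06, adjusted p = 1.17e-21). MXI1, which encodes a MYC antagonist, was lower (-1.02 ± 0.042).

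Among p53 target genes 15 were higher and 10 lower of 27, beside 38.5% and 40.2% of all tested genes. AEN, an apoptosis-enhancing nuclease, was at 2.85 and 2.43 CPM under hypoxia, 29.8 and 31.9 CPM under oxamate and 69.7 and 75.7 CPM with lactate added (4.78 ± 0.09), whereas CDKN1A, which encodes the cell cycle inhibitor p21, was at 38.0 and 37.1 CPM, 6.5 and 5.62 CPM and 14.1 and 16.2 CPM (-1.30 ± 0.084). MDM2, the main antagonist of p53, was lowered by oxamate (-0.70 ± 0.053) and above hypoxia with lactate (1.07 ± 0.047). NRF2 and pentose phosphate genes were higher in 17 and lower in 2 of 23 (median 0.66). GCLC, the rate-limiting enzyme of glutathione synthesis, stood at 36.4 and 38.0 CPM under hypoxia, 97.0 and 98.3 CPM under oxamate and 319.7 and 314 CPM with lactate added (3.09 ± 0.041, adjusted p = 4.33e-24). TXNRD1, thioredoxin reductase, was at 171 and 169 CPM, 183 and 194 CPM and 652 and 617 CPM (1.90 ± 0.036), highest in the lactate libraries. All 5 tested metallothioneins, which bind zinc and copper, were higher (median 2.66), beside 38.5% of all tested genes. Among them, MT1B had 1 and 0 counts under hypoxia and 13 and 15 with oxamate plus lactate. It could pass the count filter only through groups where it was high, so nothing is read from its direction. MT1X rose from 37.7 and 39.0 CPM to 519 and 503 CPM (3.73 ± 0.041) and MT2A from 530.3 and 493 CPM to 2029 and 2150 CPM (2.03 ± 0.04). Metallothioneins are close paralogues, so reads may be split among them.

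Among lipid and sterol genes, SCD did not return. SCD, the desaturase that makes monounsaturated fatty acids (ENSG00000099194, chr10:100347124-100364834), stood at 268 and 264 CPM under normoxia, 1272 and 1260 CPM under hypoxia, 264 and 263 CPM under oxamate and 263 and 271 CPM under oxamate plus lactate. The groups outside hypoxia overlapped, and all their libraries lay far below hypoxia (-2.24 ± 0.03, adjusted p = 4.57e-24, against -2.26 ± 0.029 with oxamate). ELOVL6, a fatty acid elongase, was lower with lactate (-2.18 ± 0.075) than with oxamate (-1.46). Of 21 cholesterol synthesis genes 5 were higher and 11 lower (median -0.18), beside 38.5% and 40.2% of all tested genes. INSIG1 stood at -1.54 ± 0.056 and LSS at -1.81 ± 0.075.

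H19 and KRT15 were also at or near their oxamate level. H19, an imprinted long noncoding RNA (ENSG00000130600, chr11:1995176-2001470), stood at 10.8 and 12.1 CPM under normoxia, 598 and 595 CPM under hypoxia, 25.5 and 26.4 CPM under oxamate and 26.0 and 22.7 CPM with lactate added (-4.62 ± 0.05, adjusted p = 3.03e-25). KRT15, a basal keratin, stood at 184 and 187 CPM, 2098 and 2112 CPM, 269 and 262 CPM and 313 and 330.5 CPM (-2.71 ± 0.031). For both genes the treated groups lay far below hypoxia. MUC1, a mucin, fell from 39.2 and 40.4 CPM under hypoxia to 1.93 and 1.92 CPM under oxamate plus lactate (-4.37 ± 0.12), and MEGF6 from 86.0 and 84.3 CPM to 2.69 and 4.03 CPM (-4.63 ± 0.11). Also among the largest decreases were BLACAT1, a long noncoding RNA (-4.82 ± 0.17), C2orf81 (-4.49 ± 0.34), C21orf58 (-4.38 ± 0.20) and EFEMP2 (-4.46 ± 0.17), the last of which shares 0.20% of its exon bases with the more abundant MUS81.

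The largest increases included MMP3, which encodes stromelysin 1 (ENSG00000149968, chr11:102835801-102843803). It had 13 counts over both hypoxia libraries and 990 over both libraries with oxamate plus lactate, a ratio of scaled counts of 99.7 (95% Clopper-Pearson interval 58.0 to 188, counting error only). Its level was 9.48 and 7.81 CPM under oxamate alone and 22.5 and 22.3 CPM with lactate added. DKK1, a secreted Wnt antagonist, stood at 112 and 114 CPM under normoxia, 6.18 and 6.09 CPM under hypoxia, 69.3 and 72.2 CPM under oxamate and 186 and 182 CPM with lactate added (4.91 ± 0.058, adjusted p = 8.93e-25). Hypoxia was its lowest group and lactate its highest. DUSP8, a stress kinase phosphatase, stood at 1.93 and 1.76 CPM under hypoxia and 77.4 and 104 CPM under oxamate plus lactate, with the wider spread between the lactate libraries (5.62 ± 0.25, adjusted p = 6.66e-06). CREB5 (5.51 ± 0.17) was also among the largest increases.

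Matrix proteases and their inhibitors were higher in 11 and lower in 5 of 18 (median 1.09), beside 38.5% and 40.2% of all tested genes. The lowest list median under any alternative was 0.47. Some members were scarce under hypoxia, such as MMP10 with 1 and 2 counts and SERPINB2 with 5 and 3. Such genes can pass the count filter through groups where they are high, so nothing is read from the number higher. MMP13, a collagenase, stood at 1.36 and 2.04 CPM under hypoxia, 9.21 and 10.6 CPM under oxamate and 15.1 and 14.3 CPM with lactate added (3.11 ± 0.15). ADAMTS1, a matrix protease, stood at 3.05 and 3.41 CPM, 8.09 and 10.0 CPM and 42.1 and 41.8 CPM (3.70 ± 0.11). The integrin gene ITGA5 was at 172 and 168 CPM under hypoxia, 16.7 and 17.1 CPM under oxamate and 47.5 and 49.3 CPM with lactate added (-1.81 ± 0.047), and SNAI2, which encodes the EMT factor Slug, at 35.5 and 32.9 CPM, 30.2 and 30.0 CPM and 133 and 137 CPM (1.98 ± 0.049).

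Of 14 tested immune checkpoint and related surface genes, 5 were higher and 7 lower, beside 38.5% and 40.2% of all tested genes. CD274, which encodes PD-L1, stood at 14.3 and 14.2 CPM under hypoxia, 40.3 and 44.1 CPM under oxamate and 50.9 and 47.9 CPM under oxamate plus lactate. The compared groups did not overlap, as in 88.5% of all tested genes. Oxamate plus lactate was the highest group (1.79 ± 0.069, adjusted p = 3.55e-16 by edgeR, against 1.56 ± 0.069 with oxamate). VTCN1, which encodes the checkpoint ligand B7-H4 (ENSG00000134258, chr1:117143587-117210960), ran against it. It had 673 counts over both hypoxia libraries and 15 over both libraries with oxamate plus lactate, a ratio of 34.3 (95% Clopper-Pearson interval 20.6 to 61.6). VSIR, which encodes VISTA, was lower (-1.95 ± 0.073), as was CD47, the ligand that signals to phagocytes (-1.39 ± 0.056). PVR, a ligand of TIGIT, was at 58.8 and 55.5 CPM under hypoxia, 154 and 151 CPM under oxamate and 91.3 and 91.8 CPM with lactate added (0.68 ± 0.043). Interferon-stimulated genes were higher in 6 and lower in 13 of 27 (median -0.42), SAMD9 at -2.68 ± 0.05 and ISG15 at 1.35 ± 0.072.

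Some genes swung from below hypoxia to above it. CPEB2, a regulator of mRNA translation, stood at 4.95 and 6.41 CPM under hypoxia, 2.71 and 2.67 CPM under oxamate and 37.1 and 42.1 CPM under oxamate plus lactate (2.81 ± 0.11, adjusted p = 3.39e-16). PNRC1, a nuclear receptor coregulator, stood at 93.1 and 98.0 CPM, 10.8 and 11.8 CPM and 171 and 177 CPM (0.87 ± 0.044). HBP1, a transcriptional repressor, stood at 86.0 and 96.4 CPM, 7.05 and 8.05 CPM and 118 and 120.4 CPM (0.39 ± 0.051), and shares 15.35% of its exon bases with COG5 on the opposite strand. Its call was lost with library totals alone (0.10, adjusted p = 0.0747 by edgeR). In each the lactate libraries lay above both hypoxia libraries and the oxamate libraries below. In the reverse class, HOXA7, a homeobox gene, was at 4.65 and 5.07 CPM under hypoxia, 7.7 and 5.5 CPM under oxamate and 1.68 and 1.34 CPM with lactate added (-1.70 ± 0.20), and TNS4, a focal adhesion gene, at 11.3 and 11.2 CPM, 12.6 and 13.8 CPM and 3.91 and 3.63 CPM (-1.58 ± 0.11). Of the genes that came back with TMM scaling, UGCG, which makes glucosylceramide, was at 173 and 174 CPM under hypoxia and 166 and 164 CPM with lactate added, after an oxamate change of -2.80 (-0.07 ± 0.036, interval -0.15 to 0.00). It was called lower with upper quartile normalization (-0.33), library totals alone (-0.36) and a stricter count filter (-0.16). SPRY1, a feedback inhibitor of growth factor signalling, was at 17.4 and 18.1 CPM, 1.94 and 2.43 CPM and 18.2 and 19.6 CPM (0.09 ± 0.095, interval -0.10 to 0.29).

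Transcript classes differed in their counts. Of 12368 protein-coding genes 44.3% were higher and 38.1% lower, with a median of 0.06. Of 682 long intergenic RNA genes 8.65% were higher and 60.7% lower (median -1.33), and of 1006 antisense RNA genes 11.1% were higher and 53.7% lower (median -1.20). Of 309 processed pseudogenes 35.6% were higher and 13.3% lower (median 0.52), and their reads may be shared with the parent genes. With oxamate alone the medians of long intergenic and antisense RNA were -1.51 and -1.05, so lactate left both classes low. The levels of these 2 classes were low throughout. Their medians over the 4 compared libraries were 0.817 CPM and 0.741 CPM, against 28.2 CPM in protein-coding genes. At such levels a gene can pass the count filter through the group where it is high, and hypoxia may be that group. The part of the level and of the filter in the difference between classes was not tested. Long intergenic RNA took 0.53% of counts in both hypoxia libraries and 0.30% and 0.27% with oxamate plus lactate.

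**Figure D5:**
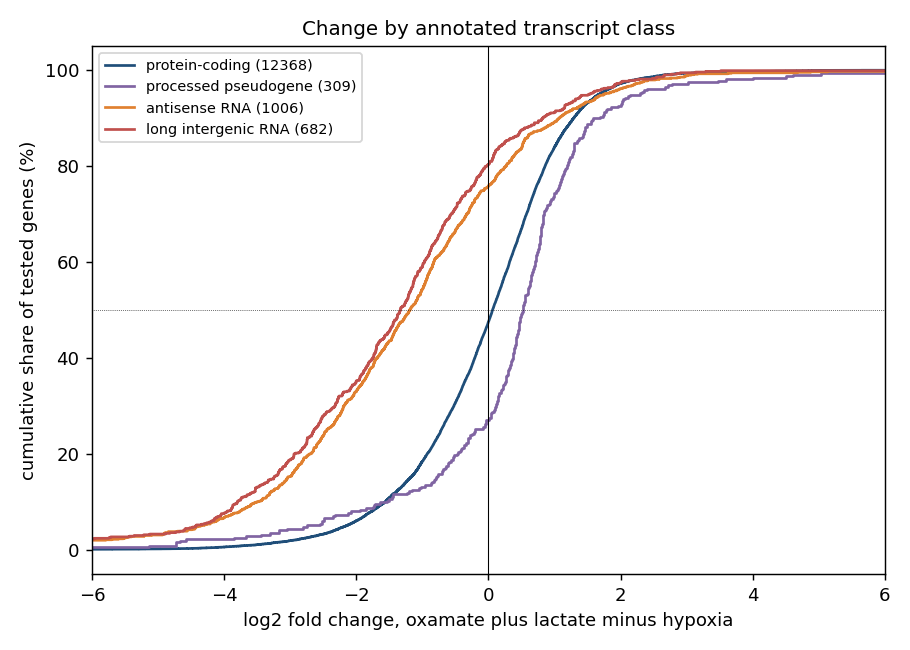
Cumulative share of tested genes (vertical axis) against the log2 fold change of oxamate plus lactate minus hypoxia, by annotated class, with the number of genes in parentheses and the axis limited to 6 on either side of 0. The curves of long intergenic and antisense RNA cross 50% at -1.33 and -1.20, that of protein-coding genes at 0.06 and that of processed pseudogenes at 0.52.

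Among protein-coding genes the classes also differed in length. The median summed exon length was 5057 bases over all 12368 tested, 6429 bases in the 1053 that oxamate lowered and lactate carried above hypoxia, and 4504 bases in the 3943 that were raised by oxamate and still higher. It was 5488 bases in the 3649 still lower genes and 5831 bases in the 1271 that came back to hypoxia. Lengths are those of merged exons in GENCODE release 29, and their quartiles overlapped widely (4390 to 9075 bases in the first class named and 2946 to 6714 in the second).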

How the data were processed

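Poly(A) RNA of 8 KYSE150 libraries was sequenced, 2 in each of 4 groups. The authors deposited a table of whole-number read counts per gene. The submitters' processing notes name FastQC 0.11.9, STAR 2.7.8a, RSEM 1.3.3 and hg38 or GRCh38, so the deposited counts may be rounded RSEM estimates. Neither the annotation nor the strand setting is stated there.

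Genes were kept with edgeR's filterByExpr (minimum count 10) and scaled by TMM. Contrasts came from edgeR's robust quasi-likelihood test with 4 group means over all 8 libraries (4 residual degrees of freedom), with Benjamini-Hochberg adjustment and a threshold of 0.05. R 4.3.3, edgeR 4.0.16, limma 3.58.1 and DESeq2 1.42.0 were used, and the fit was tested on simulated data. Classes, positions and exon lengths came from GENCODE release 29, which held 98.0% of the tested identifiers. Another 46 listed identifiers are copies on the Y pseudoautosomal region.

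Samples were grouped by their treatment labels. The gene lists and the comparison were chosen with earlier results of these data known. Named genes are 9 preset genes, the 8 largest increases and 8 largest decreases among called genes whose log2 CPM averaged 1 or more with no overlap between groups, the members of each list with the smallest p in each direction, and the leading genes of each class of return. Genes named outside this rule, such as KRT15, were chosen after their values were seen. A few genes that the rule or the lists hold are not reported here. Alternatives were other scalings and count filters, a test against a 1.5-fold change, a replicate block, DESeq2, fits of fewer groups and leaving out each library. Same-numbered replicates did not deviate together (correlations -0.050 to 0.012). Intervals on ratios of counts cover counting error only.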

Additional observations from a re-analysis of the deposited data

How the results depend on the processing

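The counts higher and lower than hypoxia stayed within 1.5 times under every other scaling, count filter, tool, fit of fewer groups and left-out library. Against a 1.5-fold change, 3374 genes were higher, 4024 lower, 3058 still lower, 2093 still higher, 222 lowered then above hypoxia and 4 raised then below it. Upper quartile normalization gave 850 genes raised then below hypoxia, and library totals alone gave 1449 genes at least 2-fold higher. These scalings moved the median of all genes from -0.05 to -0.31 and -0.34. Leaving out 1 library at a time gave 5712 to 6058 higher, 5728 to 6350 lower, 2226 to 2365 and 3317 to 3675 by 2-fold, 4415 to 4922 still lower, 4020 to 4358 still higher, 906 to 1089 lowered then above, 337 to 515 raised then below and 995 to 1246 back at hypoxia. With a replicate block the counts were 5961 higher, 6185 lower and 1267 back, and the numbers do not pair the samples. DESeq2 gave 5705 higher, 5337 lower and 900 back.

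Of 4262 values of named genes under alternatives, 4157 kept their side of the threshold, and their direction where called. Another 73 lost and 14 gained a call, and 18 turned with a call in the main fit or the alternative. With upper quartile normalization these were MCM10 (-0.11), MCM3 (-0.069), HNRNPD (-0.16), BMS1 (-0.047), ZNF395 (-0.22), EGLN1 (-0.028), ALDOA (-0.25) and PDK1 (-0.065). With library totals alone they were MCM10 (-0.13), MCM3 (-0.095), HNRNPD (-0.19), BMS1 (-0.073), ZNF395 (-0.24), EGLN1 (-0.054), ALDOA (-0.28), PKM (-0.014) and PDK1 (-0.091). With the stricter filter ALDOA turned (-0.074). The cause was not tested.

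No median of a gene list printed above changed sign under any alternative, but library totals alone lowered them all, that of ribosomal proteins from 0.60 to 0.32. That scaling also left 11 replication genes higher and 33 lower, 3 and 4 regulators of the HIF system, 3 and 17 cholesterol genes, 3 and 15 interferon-stimulated genes, 13 and 5 aminoacyl-tRNA synthetases and 16 and 4 endoplasmic reticulum genes. Ribosomal protein genes stood at 49 higher and 3 lower.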
